A study of Mus musculus with 5 samples.

Results

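Schwann cells are the glia of peripheral nerves, and 8 genes that mark them or their neural crest ancestry were followed in cells sorted from mouse pancreas. They were taken by symbol: Sox10, Foxd3, Gfra3, Ngfr, Cdh19, L1cam, S100b and Cryab. All 8 were found among the 16992 symbols present in all 5 deposited tables. The cells came from the pancreas of C57BL/6 mice aged 2 to 4 months and were freshly sorted, with no treatment named. One group was CD133(positive)CD71(negative), with 2 libraries, and the other CD133(high)CD71(low), with 3 libraries, of which the third carries no number in its title. CD133 is the surface protein made by Prom1 and CD71 the transferrin receptor. A second label field calls the latter group CD71-plus, and the titles were followed here. The groups are called CD71(negative) and CD71(low) cells from here on. The labels do not say whether libraries of a group came from separate mice or sorts, so the spread behind each p-value is that among these libraries and may be technical.

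In adult pancreas, nerve fibres with their Schwann cells run between the lobules and surround the islets. The transcription factor SOX10 is made in neural crest cells and kept on in peripheral glia, where it drives glial and myelin genes. Schwann cells make the calcium-binding protein S100B. Those that do not form myelin express the neurotrophin receptor p75 (Ngfr) and the adhesion proteins L1 and N-CAM. Myelinating Schwann cells wrap axons in a sheath of compacted membrane. None of the 8 genes is made by Schwann cells alone in the body. Cryab and L1cam in particular are made by epithelial and other cells as well.

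Values are RPKM, reads per kilobase of transcript and per 1e6 reads, a unit inferred from the values. Steps between low values gave depths, in units of 1e6 reads, of 25.6 and 19.8 for CD71(negative) and of 32.1, 31.0 and 41.7 for CD71(low) libraries. The table of library 3 of CD71(low) lists more symbols, 22522 against 18618, and this library stood apart. Its Pearson r across genes, which are not independent, was 0.957 and 0.961 to libraries 1 and 2, which reached 0.996 between themselves. To the CD71(negative) libraries, CD71(low) libraries 1 and 2 had an r of 0.957 to 0.965, and library 3 of 0.905 and 0.912. Differences are CD71(low) minus CD71(negative) on the log2(RPKM + 1) scale, tested with limma over 16887 genes with no minimum mean. On that scale a change is understated where either group lies below about 1 RPKM, as for Sox10 and Gfra3 in CD71(low) cells. Ratios of mean RPKM are therefore given as well. Of all genes 1729 were lower (10.2%) and 958 higher (5.67%) at a Benjamini-Hochberg adjusted p under 0.05, and the median difference was 0.18. The higher calls made up 35.7% of calls, against 17.8% with median-of-ratios scaling (there the median was 0.00), 12.2% with the acinar list removed and the rest rescaled (median -0.02) and 62.8% without library 3.

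Of the 8 genes, 6 fell in CD71(low) cells and 1 rose. Sox10, Foxd3, Gfra3 and Cdh19 were between 22.4 and 112.7 times as high in mean RPKM in CD71(negative) cells, Ngfr and S100b 5.25 and 3.22 times. L1cam was 1.32 times as high and did not pass the test. Cryab went the other way and was the most abundant of the 8 in every library. Every CD71(low) library lay below both others for 7 genes, which held for 18.0% of all genes, and above both for Cryab, which held for 44.5% of all genes. Without library 3, 7 fell and 1 rose, where 2166 of 16707 genes fell (13%) and 21.9% rose. The 8 genes did not form one pattern: Cryab went against the direction of the others, and L1cam was lower by a small amount that did not pass. In bulk libraries fewer cells of a type and less RNA per cell cannot be told apart.

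**Figure D1:**
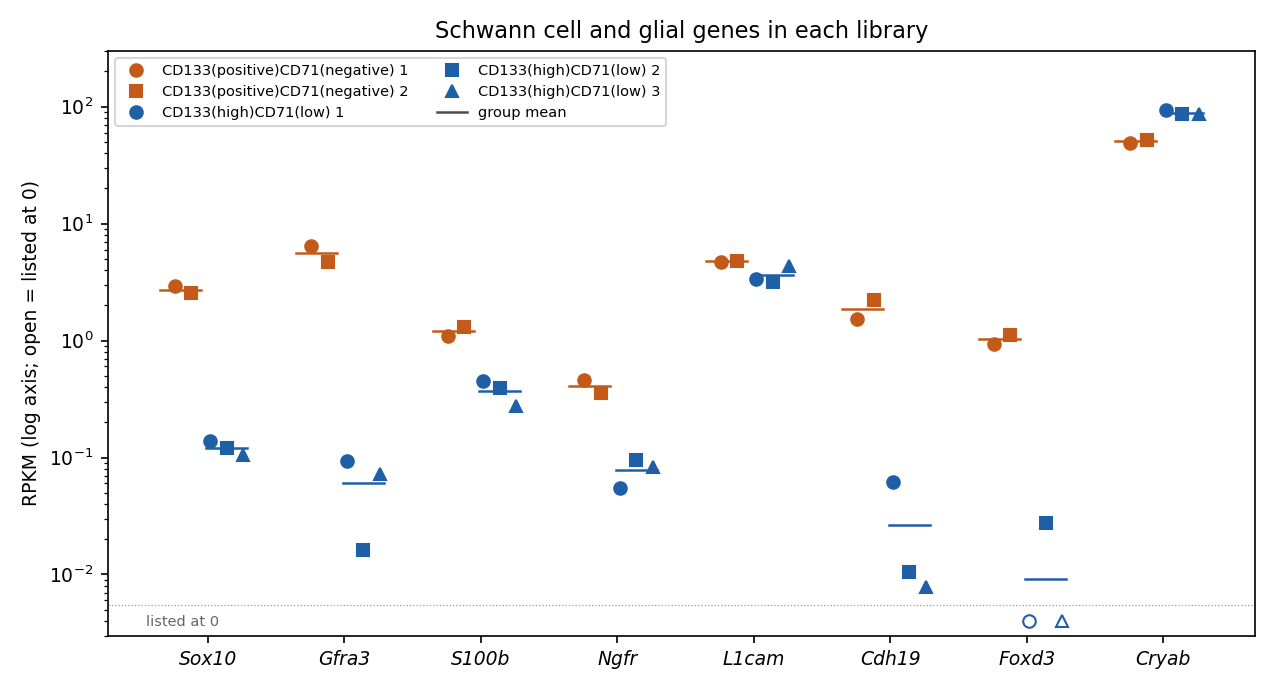
RPKM of the 8 genes in each library on a log axis, with short lines at group means and open symbols at the bottom for values listed at 0. The 3 CD71(low) libraries sit below both CD71(negative) libraries for every gene but Cryab, where they sit above; for L1cam the gap is small.

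The 250 bases before the start of transcription are shown for Foxd3 and S100b, which both fell, because one window is rich and the other poor in CpG. RefSeq promoters on GRCm38.p6 were searched for 4 of the 8 genes, S100b, Ngfr, L1cam and Foxd3. Those of Sox10, Gfra3, Cdh19 and Cryab were not searched, so the matches below say nothing about these genes. Capitals mark matches, on either strand, to the CCAAT box (CCAAT), the cyclic AMP response element (TGACGTCA) and the E-box CACGTG.
Foxd3, chr4:99656049-99656298, plus strand: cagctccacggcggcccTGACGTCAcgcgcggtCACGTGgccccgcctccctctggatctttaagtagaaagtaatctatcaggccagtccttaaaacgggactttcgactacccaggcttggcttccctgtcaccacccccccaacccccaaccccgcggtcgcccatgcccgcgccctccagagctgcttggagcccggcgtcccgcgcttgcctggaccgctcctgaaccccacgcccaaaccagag
S100b, chr10:76253586-76253835, plus strand: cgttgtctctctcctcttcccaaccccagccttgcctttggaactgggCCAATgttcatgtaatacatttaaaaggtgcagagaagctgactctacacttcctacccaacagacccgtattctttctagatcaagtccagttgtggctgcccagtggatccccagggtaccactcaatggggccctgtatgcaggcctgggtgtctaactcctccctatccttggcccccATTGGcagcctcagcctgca
The Foxd3 window held 21 CpG dinucleotides at a GC content of 65.6%, and the S100b window 2 at 53.6%, with medians of 6 and 52.4% over 32851 promoters. TGACGTCA was present in 1.55% of all these windows, CACGTG in 6.02% and CCAAT in 33.8%. TGACGTCA and CACGTG were chosen after the Foxd3 sequence was seen. The cores bound by SOX factors, ACAAAG and ACAATG, were searched on both strands and occurred in neither window nor in those of Ngfr and L1cam. Either core was present in 25.2% of all windows. No TATAAA occurred in the 4 genes' windows, against 12.4% of all. A match describes letters in this window and no site of binding.

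Both transcription factor genes fell to about 12 reads or fewer per library. Sox10 (ENSMUSG00000033006.10, chromosome 15, 79154908 to 79165240, minus strand, mm10) measured 2.90 and 2.53 RPKM in the CD71(negative) libraries and 0.138, 0.12 and 0.106 in the CD71(low) libraries. The groups lay far apart, with little spread inside either. Over a transcript of 2713 bases these values stand for about 201 and 136 reads against about 12, 10 and 12. The difference was -1.73 (SE 0.069, limma adjusted p = 0.000482) and the means were 2.72 ± 0.26 (SD, n = 2) and 0.121 ± 0.016 (n = 3). By read counts the ratio was 22.9, with an exact 95% interval of 16.1 to 33.6 that covers counting error only.

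Foxd3 encodes a forkhead factor of neural crest and early glial precursors. It lies on chromosome 4 (ENSMUSG00000067261.4, 99656299 to 99658622, plus strand). It measured 0.925 and 1.13 RPKM in the CD71(negative) libraries, was listed at 0 in CD71(low) libraries 1 and 3, and measured 0.027 in library 2. Reads were about 55.0 and 51.8 against 0, 1.97 and 0, so the whole level in CD71(low) cells rested on 2 reads of one library. The ratio by reads was 124 (exact 95% interval 33.4 to 1033, counting error only), and without library 2 all remaining CD71(low) values were 0. Without library 1 or 3 the ratio of mean RPKM was 75.1 in place of 112.7. The difference was -1.004 (SE 0.053, limma adjusted p = 0.000826). A miRNA gene, Gm23366, lies within the same exon over 89 bases, and its reads could count for either.

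Among surface proteins, the 2 genes with the steepest falls were a receptor and a cadherin. Gfra3 (ENSMUSG00000024366.8, chromosome 18, 34689898 to 34720387, minus strand) encodes the GPI-anchored receptor for artemin, which signals through RET. It measured 6.40 and 4.71 RPKM in the CD71(negative) libraries and 0.094, 0.016 and 0.072 in the CD71(low) libraries. On the log2(RPKM + 1) scale it had the largest difference of the 8, -2.62 (SE 0.14, limma adjusted p = 0.000812), and only 0.462% of all genes had a lower one. About 327 and 186 reads stood against 6.02, 1.01 and 5.98. The means of 5.55 ± 1.2 and 0.061 ± 0.040 gave a ratio of 91.4, and by reads it was 91.1 (exact 95% interval 52.8 to 172, counting error only).

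Cdh19 (ENSMUSG00000047216.8, chromosome 1, 110888326 to 110977584, minus strand) encodes a type II cadherin of Schwann cell precursors and nerve glia. It measured 1.53 and 2.21 RPKM against 0.061, 0.011 and 0.0078. CD71(low) library 1 was several times above libraries 2 and 3 of its group, yet far below both CD71(negative) libraries. The difference was -1.47 (SE 0.11, limma adjusted p = 0.00248). The ratio of means was 70.3, and 203 without CD71(low) library 1. With the annotated length of 3914 bases the reads came to about 153 and 171 against 7.70, 1.29 and 1.27, which are not whole numbers, so the length used by the authors may differ.

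Ngfr and S100b had smaller differences, from levels near or below 1 RPKM. Ngfr (ENSMUSG00000000120.6, chromosome 11, 95568818 to 95587735, minus strand), the gene of p75, measured 0.461 and 0.355 in the CD71(negative) libraries and 0.055, 0.095 and 0.083 in the CD71(low) libraries. About 40.6 and 24.2 reads stood against 6.09, 10.2 and 11.9. The difference was -0.38 (SE 0.042, limma adjusted p = 0.00733), and the means of 0.408 ± 0.074 and 0.078 ± 0.021 gave the ratio of 5.25. The groups did not overlap, and the gene stayed called with each library left out in turn.

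S100b (ENSMUSG00000033208.7, chromosome 10, 76253853 to 76261159, plus strand) is the classical marker protein of glia and is made by other cells too. It measured 1.09 and 1.30 RPKM against 0.451, 0.390 and 0.273. The groups did not overlap, and about 41.2 and 38.3 reads stood against 21.5, 17.9 and 16.9. The difference was -0.68 (SE 0.084, limma adjusted p = 0.0103). The call was lost without CD71(negative) library 2 (limma adjusted p = 0.0677) or CD71(low) library 2 (0.0558). Dip2a overlaps the gene on the opposite strand, with no shared exon bases.

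L1cam (ENSMUSG00000031391.18, chromosome X, 73853778 to 73896105, minus strand), the L1 adhesion protein of axons and glia, measured 4.72 and 4.81 RPKM against 3.34, 3.18 and 4.32. Library 3 of CD71(low) was closest to the other group. The difference was -0.33 (SE 0.16, limma adjusted p = 0.204). Without library 3 it was -0.44 and passed (limma adjusted p = 0.0216), and it also passed with median-of-ratios scaling (-0.57, limma adjusted p = 0.0207). Between 487 and 920 reads per library stood behind it, and the ratio by reads was 1.29 (exact 95% interval 1.2 to 1.39, counting error only). Of its 7347 annotated exon bases, 100 are shared with Arhgap4 on the same strand.

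Cryab (ENSMUSG00000032060.10, chromosome 9, 50751325 to 50756636, plus strand) encodes alpha-B crystallin, a small heat shock protein of lens, muscle and glia that other stressed or secretory cells make too. It measured 49.1 and 51.5 RPKM in the CD71(negative) libraries and 94.4, 86.0 and 86.4 in the CD71(low) libraries. It rose by 0.81 (SE 0.090, limma adjusted p = 0.00758), from 50.3 ± 1.70 to 88.9 ± 4.74, a ratio of 1.77. With median-of-ratios scaling the difference was 0.52 (limma adjusted p = 0.0926) and with the acinar list removed and the rest rescaled to the same total 0.47 (limma adjusted p = 0.202). The call was also lost without CD71(negative) library 1 or 2 (limma adjusted p = 0.0763 and 0.0624). Hspb2 overlaps 252 of its 1479 exon bases on the opposite strand and measured 4.99 to 6.97 RPKM. The use of strand in counting is not given in the sources used here. The ductal marker list, 16 of 26 higher and 0 lower (22 and 0 at an unadjusted p under 0.05), summed to 3985 and 4290 RPKM against 5891, 5907 and 8180, a ratio of 1.61. Its part in the rise of Cryab was not tested.

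**Figure D2:**
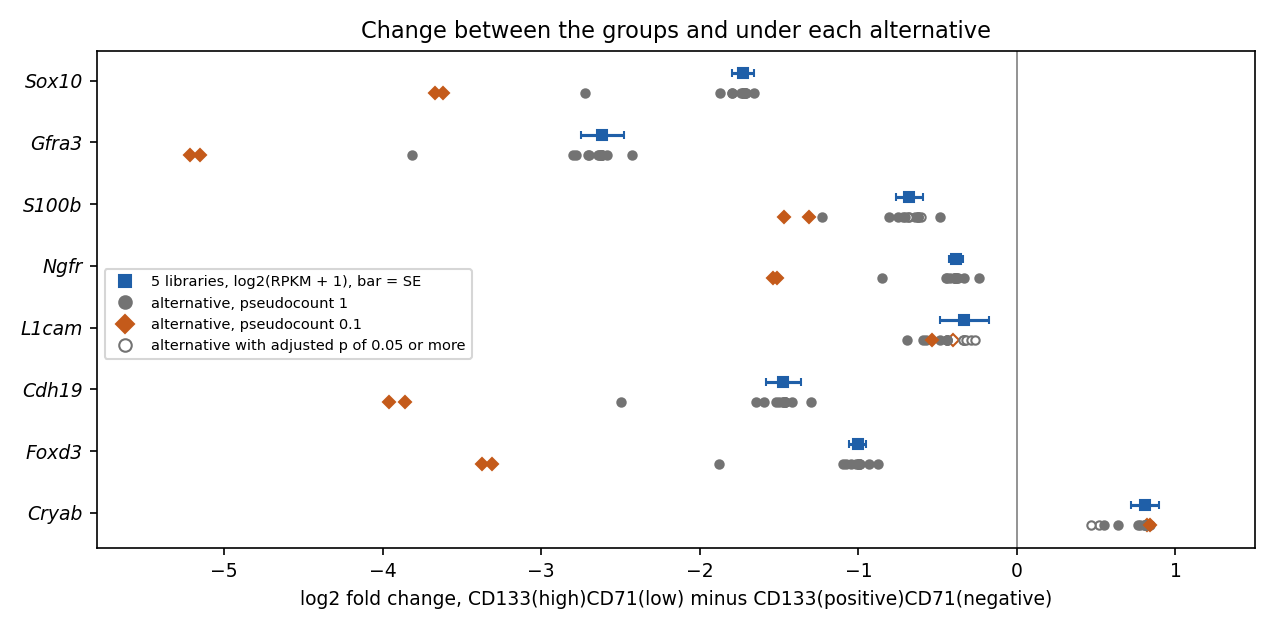
Difference of each gene between groups (squares, bar = SE) and under each alternative (circles and diamonds, open where the adjusted p was 0.05 or more). No alternative changed a direction; the diamonds use a pseudocount of 0.1, on which Gfra3 reached -5.22 and Sox10 -3.67.

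By the distance between centred log2(RPKM + 0.1) values over the 5 libraries, Sox10 lay nearest to Foxd3 (0.560) and Cdh19 (0.672) among the 8 genes and farthest from Cryab (4.92). S100b and Ngfr lay close to each other (0.692). Among 11787 other genes with a mean of at least 0.5, the 5 nearest to Sox10 were Dock10 (0.154), Itgb7, F13a1, Csf2rb2 and H2-M2 (0.222). Those nearest to Gfra3 were Fcgr2b (0.321), Il1b, Bcl2a1b, Lilrb4 and Ifitm6 (0.595). Itgb7, F13a1, Fcgr2b and Il1b are known from leukocytes. Bcl2a1b and Lilrb4 have near-identical gene copies, so their values are uncertain. Dock10 measured 2.81 and 2.72 RPKM against 0.124, 0.12 and 0.095, nearly the levels of Sox10, and Ifitm6 was listed at 0 in all CD71(low) libraries. With 2 groups the distance reflects mainly the size of the difference between them.

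Other glial genes mostly fell with Sox10. Of 22 tested genes of a wider glial list, which shares 2 genes with the myelin list, 12 fell and 2 rose (14 and 3 without library 3), and the median difference was -0.47, beside 0.18 over all genes. Scn7a, a sodium channel gene of Schwann cells that do not form myelin, measured 5.04 and 4.41 RPKM against 0.094, 0.071 and 0.026 (difference -2.43, SE 0.086, limma adjusted p = 0.000482). The potassium channel gene Kcna1 fell from 2.32 ± 0.021 to 0.018 ± 0.0091 and Ncam1, the gene of N-CAM, from 1.23 ± 0.18 to 0.055 ± 0.023. Outside the rule for named genes and chosen after their values were seen, Dhh, encoding the desert hedgehog ligand of Schwann cells, fell from 2.82 ± 0.58 to 0.520 ± 0.24, and Gpr37l1, a glial receptor gene, from 2.59 ± 0.53 to 0.083 ± 0.061. The 2 that rose, Erbb3 and Itgb8, encode a neuregulin receptor and an integrin subunit that epithelia make as well. Gfap, the intermediate filament of astrocytes and some Schwann cells, measured 0.112 to 0.275 in all libraries, where the groups overlapped.

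Genes of the myelin list, some of which other cells make as well, showed no common direction. Of 17 tested 3 fell and 2 rose (6 and 3 without library 3), with a median of -0.05. Mbp measured 15.9 and 16.3 against 17.97, 18.7 and 21.4 and did not pass (limma adjusted p = 0.178). Gjc3, a glial connexin gene, was listed at 0 in all 3 CD71(low) libraries, against 0.212 and 0.316 (limma adjusted p = 0.00881), while Gjb1, a connexin gene of liver and Schwann cells, rose from 33.1 ± 1.01 to 46.6 ± 1.57. The rise of Gjb1, 0.48, was 0.19 with median-of-ratios scaling (limma adjusted p = 0.44), 0.20 with quantile normalization (0.286) and 0.14 with the acinar list removed and the rest rescaled (0.67). Mpzl1 fell from 26.7 ± 1.09 to 20.5 ± 0.47 and did not pass in the last of these settings (-0.72, limma adjusted p = 0.0664). A330049M08Rik, the older symbol of Ncmap, rose from 6.62 ± 0.37 to 11.9 ± 1.38.

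Of the receptor genes related to Gfra3, Gfra1, Gfra2 and the shared partner Ret fell, while Gfra4 and the ligand genes did not pass. In the list of GDNF family ligands and receptors, which leaves out Gfra3, 3 of 8 fell and 0 rose in limma (3 and 2 at an unadjusted p under 0.05, and 3 and 1 without library 3), with a median of -0.01. Gfra2, the neurturin receptor, fell from 3.00 and 2.40 RPKM to 0.135, 0.056 and 0.028 (difference -1.78, SE 0.096, limma adjusted p = 0.000894). Ret, the signalling partner of these receptors, fell from 0.423 ± 0.091 to 0.109 ± 0.053 and Gfra1 from 0.670 ± 0.085 to 0.289 ± 0.046. With quantile normalization neither passed (-0.20, limma adjusted p = 0.125, for Ret and -0.16, 0.142, for Gfra1). Artn, the artemin ligand gene, measured 0.185 to 0.313 in all libraries (limma adjusted p = 0.11). Nrtn, encoding neurturin, measured 4.91 and 7.64 against 9.28, 10.1 and 8.02 (limma adjusted p = 0.166).

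Neurotrophin genes moved both ways, with 2 of 12 lower and 3 higher (2 and 5 without library 3; median 0.27). Ntf3, neurotrophin 3, fell from 0.40 ± 0.14 to 0.014 ± 0.012 and Sorcs2, a sortilin family receptor gene, from 0.527 ± 0.060 to 0.108 ± 0.043. The p75-binding protein genes Ngfrap1 (22.7 ± 1.77 to 30.7 ± 1.41) and Maged1 (56.2 ± 1.06 to 85.8 ± 7.40) rose. With median-of-ratios scaling neither passed, with differences of 0.14 (limma adjusted p = 0.409) in place of 0.42 and 0.31 (0.0705) in place of 0.60.

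The ErbB receptor genes Erbb2, Erbb3 and Erbb4 rose, against the direction of Sox10, while Egfr did not pass (0.42, limma adjusted p = 0.148). In the neuregulin and ErbB list 4 of 9 rose and 0 fell in limma (4 and 1 at an unadjusted p under 0.05, and 5 and 1 without library 3; median 0.42). Erbb3, which binds neuregulin on Schwann cells and on epithelia, measured 14.4 and 15.1 RPKM against 25.6, 25.5 and 28.7 (difference 0.81, SE 0.096, limma adjusted p = 0.00917). Erbb2, its signalling partner, rose from 9.05 ± 0.78 to 15.6 ± 0.52 and Erbb4 from 1.67 ± 0.061 to 4.05 ± 0.83. Erbb2 did not pass with the acinar list removed and the rest rescaled (difference 0.42, limma adjusted p = 0.115) or with quantile normalization (0.46, limma adjusted p = 0.0599). The ligand gene Nrg1 measured 0.131 to 0.416 in all libraries.

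Among adhesion, neural crest and family relatives of the 8 genes some fell and some rose. Over all genes 10.2% fell and 5.67% rose, and without library 3 13% fell and 21.9% rose. In lists this short, 1 gene called in a direction is therefore no sign of a split. Whether any of these lists departed from the shares over all genes was not tested. Of 11 genes of the L1 family and its partners 4 fell and 1 rose (4 and 1 without library 3; median -0.01). Chl1, the close homologue of L1, fell from 0.840 and 0.728 RPKM to 0.0040, 0.0084 and 0 (difference -0.83, SE 0.037, limma adjusted p = 0.000566). Of the cytoskeletal linkers that can bind L1, Msn fell from 43.2 ± 2.02 to 11.4 ± 1.92 while Ezr rose from 46.5 ± 4.92 to 81.9 ± 1.97. Ezr did not pass with median-of-ratios scaling (0.52 in place of 0.81, limma adjusted p = 0.0687) or with the acinar list removed and the rest rescaled (0.47, 0.163). Cntn1, a contactin of axons and glia, fell from 0.123 ± 0.012 to 0.014 ± 0.0087, a call lost with quantile normalization (limma adjusted p = 0.0568). Of 9 type II cadherins other than Cdh19, the endothelial Cdh5 fell (63.7 ± 3.35 to 12.1 ± 6.49) and the epithelial Cdh6 rose (4.06 ± 0.20 to 9.50 ± 1.13), also without library 3, with a median of -0.09. Cdh7 and Cdh12 were listed at 0 in every library.

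In the neural crest list 5 of 16 fell and 1 rose (5 and 4 without library 3; median -0.02). The endothelin receptor gene Ednrb fell from 3.03 and 2.76 RPKM to 0.622, 0.527 and 0.379 (difference -1.37, SE 0.11, limma adjusted p = 0.00252), Ets1 from 13.7 ± 0.16 to 5.11 ± 0.60 and Snai2 from 0.831 ± 0.10 to 0.128 ± 0.088. Sox9, a SOXE relative of Sox10 that duct cells make, rose from 36.2 and 44.3 to 65.5, 69.7 and 89.8 (difference 0.87, SE 0.18, limma adjusted p = 0.0393). Sox8, the remaining SOXE gene, measured 0.065 to 0.185 in all libraries, where the groups overlapped. Of 11 S100 family and partner genes other than S100b, 4 fell and 1 rose (4 and 2 without library 3; median 0.14). S100a4 (28.1 ± 7.78 to 0.622 ± 0.25), S100a8 (9.65 ± 0.35 to 0.212 ± 0.25) and S100a9 (16.9 ± 3.86 to 0.297 ± 0.21), all made in quantity by leukocytes, fell with differences of -4.15, -3.15 and -3.78, and S100a1 rose (44.1 ± 2.96 to 61.7 ± 3.98). The rise of S100a1, 0.47, was 0.18 with median-of-ratios scaling (limma adjusted p = 0.563), 0.21 with quantile normalization (0.34) and 0.13 with the acinar list removed and the rest rescaled (0.752). Among 8 small heat shock genes and relatives of Cryab 1 fell and 0 rose in limma (1 and 1 at an unadjusted p under 0.05, and 1 and 3 without library 3; median 0.04). The one that fell was Hspb7, at 0.099 RPKM or less, a call lost with quantile normalization (limma adjusted p = 0.0873), and Hspb1 measured 48.05 to 101.5 with the groups overlapping.

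Of the named list genes, 11 of the 25 that fell and 0 of the 13 that rose stayed called whichever library was left out. Without CD71(negative) library 1 or 2 only 17 or 40 genes of any kind were called higher, and 935 or 962 lower. Scn7a, Kcna1, Ncam1, Gfra2, Chl1 and Ednrb were among the 11.

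**Figure D3:**
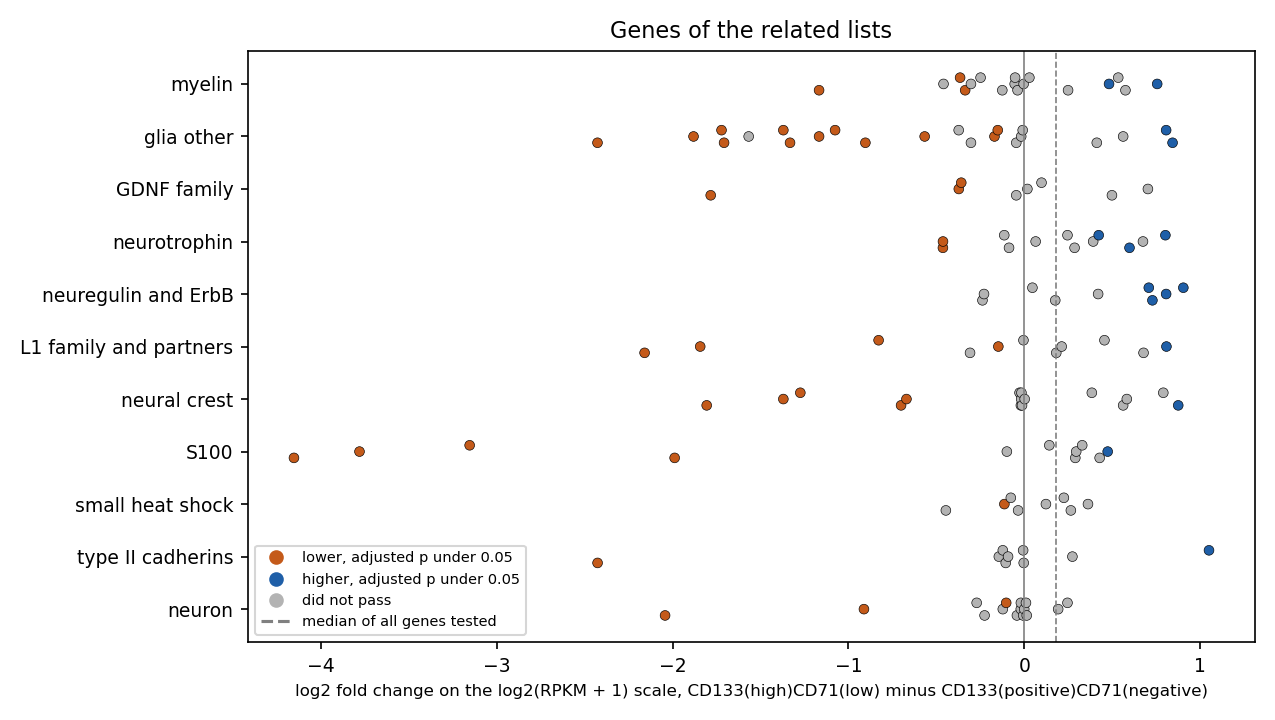
Difference of each tested gene of the related lists on the log2(RPKM + 1) scale, coloured by direction where the adjusted p was under 0.05, with the median of all genes (0.18) as a dashed line. The wider glial list lies mostly to the left, with Scn7a at -2.43, and the neuregulin and ErbB list holds no gene that fell.

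Neuronal genes were below 1 RPKM apart from Stmn2 and Uchl1. Of 15 tested 3 fell and 0 rose in limma (5 and 1 at an unadjusted p under 0.05, and 2 and 0 without library 3; median -0.02). Stmn2, a growth cone protein gene also made by some secretory and mesenchymal cells, fell from 15.3 and 14.1 RPKM to 4.02, 2.80 and 1.90 (limma adjusted p = 0.0111), and Uchl1 from 2.19 ± 0.43 to 0.702 ± 0.26. Rbfox3 fell at 0.117 RPKM or less, a call lost with quantile normalization (limma adjusted p = 0.306). The other defining markers Tubb3, Snap25, Prph and Th measured 0.428 or less in every library. Of the melanocyte list, another crest lineage, 3 of 8 symbols were in the tables and summed to 0.137 to 0.286 in all libraries. In limma 0 of the 3 passed (1 lower at an unadjusted p under 0.05).

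Other cell types moved with the glial genes between the same groups. Of 22 leukocyte markers 21 fell and 0 rose (22 and 0 at an unadjusted p under 0.05, likewise without library 3). Their sum was 1726 and 1694 RPKM against 86.5, 74.1 and 45.8, a ratio of 24.8. The 6 members that fell had ratios from 3.22 (S100b) to 112.7 (Foxd3), with Sox10 at 22.4. Of 20 endothelial markers 18 fell and 0 rose (19 and 0 unadjusted), with sums of 1126 and 1051 against 331.0, 216.1 and 148.3. Of 20 mesenchymal and stellate markers 11 fell and 0 rose (15 and 0 unadjusted), with sums of 453.9 and 425.7 against 196.0, 177.8 and 181.1. No marker of these 3 lists was at 0 in every library. The mesothelial sum was 5.83 and 6.19 against 2.33, 2.89 and 1.12 (3 of 7 lower, 0 higher, 4 and 0 unadjusted), and that of skeletal and smooth muscle 7.04 and 6.92 against 4.44, 3.51 and 1.39 (1 of 7 lower, 0 higher, 4 and 0 unadjusted, 2 and 0 without library 3). Of the adipocyte list Adipoq, Plin1 and Cfd were at or near 0 in every library and Fabp4, which capillaries also make, measured 187 and 162 against 54.5, 37.0 and 14.6. In limma 0 of its 5 tested genes passed (1 lower unadjusted and 1 without library 3). Endocrine markers summed to 1948 and 1776 against 1705, 1970 and 745.0, with 6 of 22 lower and 3 higher (12 and 4 unadjusted, 10 and 5 without library 3). The acinar list summed to 342578 and 307705 against 283692, 286938 and 184168, with 0 of 38 called in limma (0 unadjusted, 1 lower without library 3). The part of these cell types in the levels of the 8 genes was not tested.

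**Figure D4:**
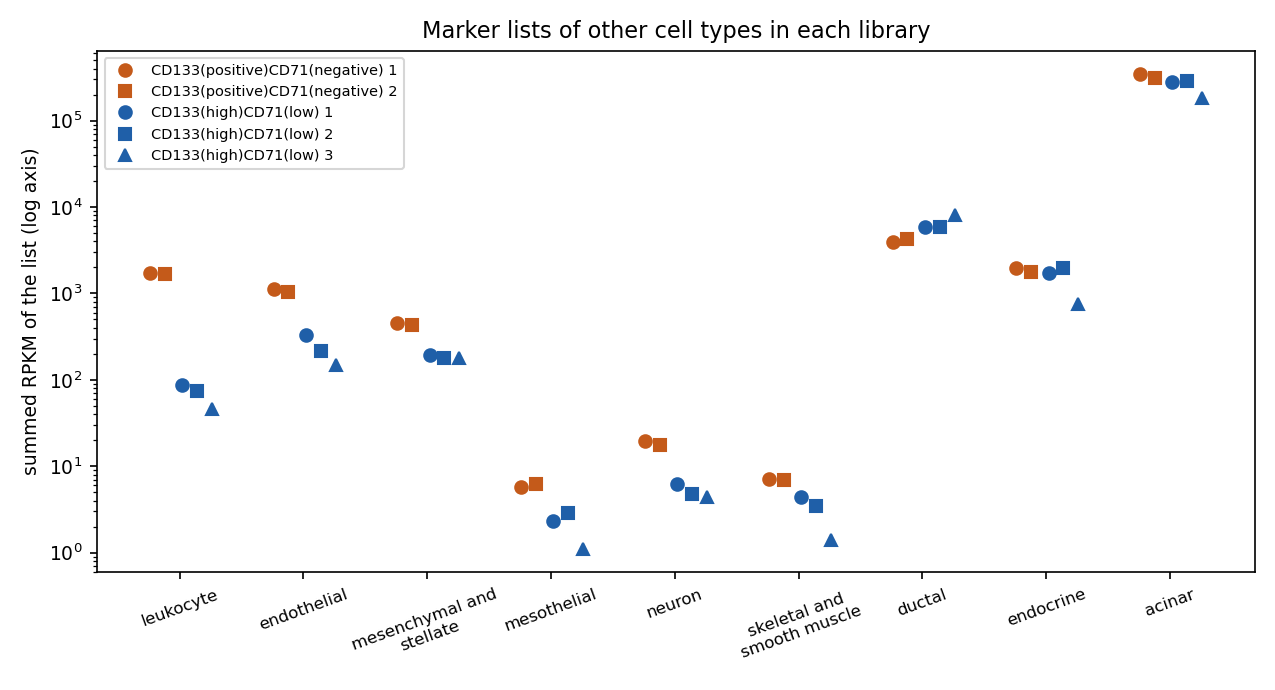
Summed RPKM of marker lists of other cell types in each library, on a log axis. The leukocyte, endothelial, mesenchymal, mesothelial, neuron and muscle sums are lower in all 3 CD71(low) libraries, and the ductal sums are higher.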

How the data were processed

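RNA of sorted cells was sequenced in 5 libraries. Each deposited table holds 1 library, with an RPKM per gene symbol from the authors. The unit was inferred, since the product of low values and transcript length came in whole steps: 52.4% to 70.3% of low values of 1796 genes with 1 transcript lay within 0.05 reads of a whole number. RPKM and FPKM cannot be told apart in this way, and no count test was run. Read numbers were estimated for the 8 genes alone, rounded to whole reads for the ratios and their intervals. Partek and mm10 are named, per the submitters' processing notes. Aligner, annotation and versions: not given in the sources used here. The 4 numbered libraries list 18618 symbols and library 3 lists 22522. One row of library 3 names no gene, a total of 74200000 alignments, and was left out.

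Values were transformed as log2(RPKM + 1). Symbols at 0 in all 5 libraries (105) were left out, and limma 3.58.1 (R 4.3.3) was run on the rest with a mean-variance trend and no term but the group. Benjamini-Hochberg adjustment covered all genes, at a threshold of 0.05. The fit and the depth estimate were tested on simulated data. For the fit, changes were planted only in genes with a mean of at least 1, with the same spread in every library. That test therefore does not cover calls of lower genes or a library that stands apart. The read estimates used RPKM, depth and the length of the RefSeq-matched GENCODE M21 transcript, which also gave positions. Intervals of read ratios are exact at 95%.

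The 8 genes and all lists were chosen with earlier results of these data known. Named list genes are up to 3 per list and direction with the smallest p, or the 2 highest if none passed, and the 5 nearest genes of Sox10 and of Gfra3. Further genes in the text were picked with their values known. Some genes that the rule names are not reported here. Alternatives were a pseudocount of 0.1, a mean of at least 1, zeros included, median-of-ratios scaling, quantile normalization, acinar genes removed with the rest rescaled, array weights, each library left out, 3 further fits of the 4 numbered libraries and a replicate block. Other software was Python 3.11.15 with numpy 2.4.6 and pandas 2.3.3, and matplotlib 3.10.9 for figures.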

Additional observations from a re-analysis of the deposited data

How the results depend on the processing

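Over 16 alternatives none of the 8 genes changed direction. Of the called genes, Sox10, Gfra3, Ngfr, Cdh19 and Foxd3 passed under every alternative in which they were tested, S100b under 13 of 15 and Cryab under 12 of 16. L1cam passed under 9 of 16. The other 48 named genes kept their call in 630 values over these alternatives, lost it in 125 and reversed in none. Leaving out a CD71(negative) library leaves 1 in that group, which is then assumed to vary like the other group. Of the 8 genes 6 fell, and 5 to 7 with each library left out in turn. With a mean of at least 1, which tested 4 of the 8, 2 fell. The 1 that rose became 0 with median-of-ratios scaling and with the acinar list removed and the rest rescaled (limma; 1 and 0 at an unadjusted p under 0.05), and 0 to 1 with each library left out.

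The number of all genes called higher was 446 with median-of-ratios scaling, 280 with the acinar list removed and the rest rescaled, 3787 with array weights, 3278 in the 4 numbered libraries with all genes of their tables and 3508 there with a pseudocount of 0.1, a setting chosen after seeing the data. It was 17 to 3662 with each library left out. The number called lower was 850 with a mean of at least 1, where fewer genes were tested, and 885 to 2166 with each library left out. The cause of the other shifts was not tested. The share of higher calls was 44.2% with quantile normalization.

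The replicate numbers 1 and 2 gave no sign of pairing: the deviations of same-numbered libraries had a correlation of -0.02 over 11769 genes. With the replicate block over the 4 numbered libraries 2672 genes were higher and 1989 lower, against 3662 and 2166 without it, and 7 of the 8 genes fell and 1 rose in either fit. Depth limits Foxd3, Gfra3 and Cdh19 in CD71(low) libraries, where a handful of reads stand behind each value.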
